A study of Drosophila melanogaster with 6 samples.

Results

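The Cpr genes of Drosophila melanogaster encode cuticle proteins, and 60 probe sets for 58 of these genes were followed in 2 fragments of the wing imaginal disc. The members are all probe sets whose only annotated gene symbol is Cpr followed by a digit. They were 60 of 13966 fly probe sets on the array and 60 of the 12443 that named 1 gene. The RefSeq gene table lists 70 such genes, and all 58 genes with a probe set of their own matched it. A further 3 probe sets named a Cpr gene together with another gene and were not counted as members.

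In the larva the wing disc is an epithelial pouch from which the adult wing, its hinge and the dorsal thorax develop. Wild-type discs of the third instar were divided into body wall (the future notum) and wing/hinge, and each fragment was measured on 3 Affymetrix arrays from about 8 ug of total RNA. The labels name no strain, sex or hour of development, and describe the arrays of a fragment as biological replicates. Nothing there says whether the replicates came from separate dissections, so the p-values measure the spread between these arrays only. The arrays body wall 1 and body wall 2 carry aliases with the same number, 1 of them with an added R. They were counted as 2 samples, but the labels do not say whether they are repeats of 1 RNA, in which case body wall would have 2 replicates and not 3.

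Insect cuticle is made of chitin fibres embedded in protein. Most of its structural proteins belong to the Cpr family, named for the Rebers and Riddiford consensus, a conserved stretch that binds chitin. The number and letter after Cpr give the cytological position of the gene, so that genes with the same number and first letter lie close together on the chromosome. The disc epithelium lays down pupal cuticle after the larva has formed the puparium, and adult cuticle later in the pupa, under the control of pulses of the steroid hormone ecdysone. The role of single Cpr genes in the disc is for most of them not known, so the members are described by position.

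Values are the deposited intensities, on a linear scale in arbitrary units. The probes of a set differ in how well they hybridise, so each probe set is compared between arrays and not with another probe set. The background level used here was 55.1, the 95th percentile of 23 controls that target RNA of bacteria, mouse or yeast, whose highest value was 91.8. Taken on each array alone, this percentile was 89.15 on body wall 1 and 25.1 to 54.7 on the other arrays. The share of fly probe sets above this level ran from 59.9% to 65.5% per array. The arrays differed in their brightest value, which reached 24976 or more on body wall 1, wing/hinge 1 and wing/hinge 2 and 14881 or less on the others. The ratio of the 3' to the 5' actin control was 1.92 to 2.98 on the former, called wide-range arrays here, and 1.12 to 1.28 on the narrow-range arrays. Markers matched the fragments. The listed body wall epithelium genes pnr, tup, eyg, B-H1 and sr summed to between 2213 and 2705 in body wall and to between 220.3 and 452 in wing/hinge. The wing pouch genes nub, pdm2, vg, dve, Dll and bi summed to between 865 and 1134 in body wall and to between 6550 and 7359 in wing/hinge.

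Signal for the Cpr genes was partial. Of the 60 probe sets, 35 (58.3%) lay above background on at least 3 of the 6 arrays, against 65.1% of all fly probe sets. On all 6 arrays 16 did so (26.7%, against 48.8%), and on no array 13 (21.7%, against 20.4%). The rest were above background on some arrays only, 10 of them on a single array, 2 on 2 arrays, 8 on 3, 7 on 4 and 4 on 5. With the highest control value as the limit, 25 members passed on at least 3 arrays. The number above background per array was 34, 29 and 31 in body wall and 29, 32 and 27 in wing/hinge.

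**Figure D1:**
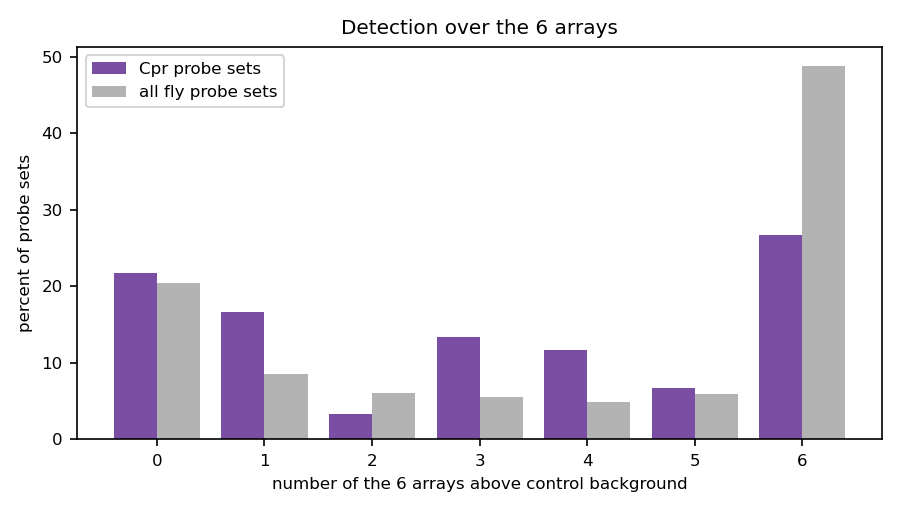
Share of probe sets (percent, vertical axis) by the number of arrays on which they lay above the control background of 55.1 (horizontal axis), for the 60 Cpr probe sets and all 13966 fly probe sets. On all 6 arrays it is 26.7% of the Cpr probe sets and 48.8% of all.

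The 16 members above background on every array were Cpr12A, Cpr30B, Cpr47Ed, Cpr49Ac, Cpr51A, Cpr56F, the 4 Cpr64A genes, Cpr65Ec, Cpr66D (1 of its 2 probe sets), Cpr72Eb, Cpr78E, Cpr92A and Cpr97Ea. A further 7 (11.7%, against 5.13% of all fly probe sets) passed on all 3 body wall arrays but not on all of wing/hinge. They were Cpr11A, Cpr11B, Cpr47Eg, Cpr62Bc, Cpr72Ea, Cpr76Bc and Cpr78Ca. The reverse held for 7 more (11.7%, against 3.80% of all fly probe sets). These were Cpr31A, Cpr35B, Cpr49Ah, Cpr50Cb, the other probe set of Cpr66D, Cpr67B and 1 probe set of Cpr73D. Cpr11B and Cpr47Eg lay above background on every body wall array and on none of wing/hinge, and Cpr35B and Cpr49Ah the other way round. Such patterns were shown by 0.480% and 0.372% of all fly probe sets. The body wall pattern depended on the use of a common background level. Set against the control percentile of each array alone, Cpr11B passed on wing/hinge 2 (51.9, limit 47.4) and wing/hinge 3 (49.8, limit 42.9). Cpr47Eg passed on wing/hinge 1 (31.4, limit 25.1). Cpr35B and Cpr49Ah kept their pattern with the limits of the single arrays.

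**Figure D2:**
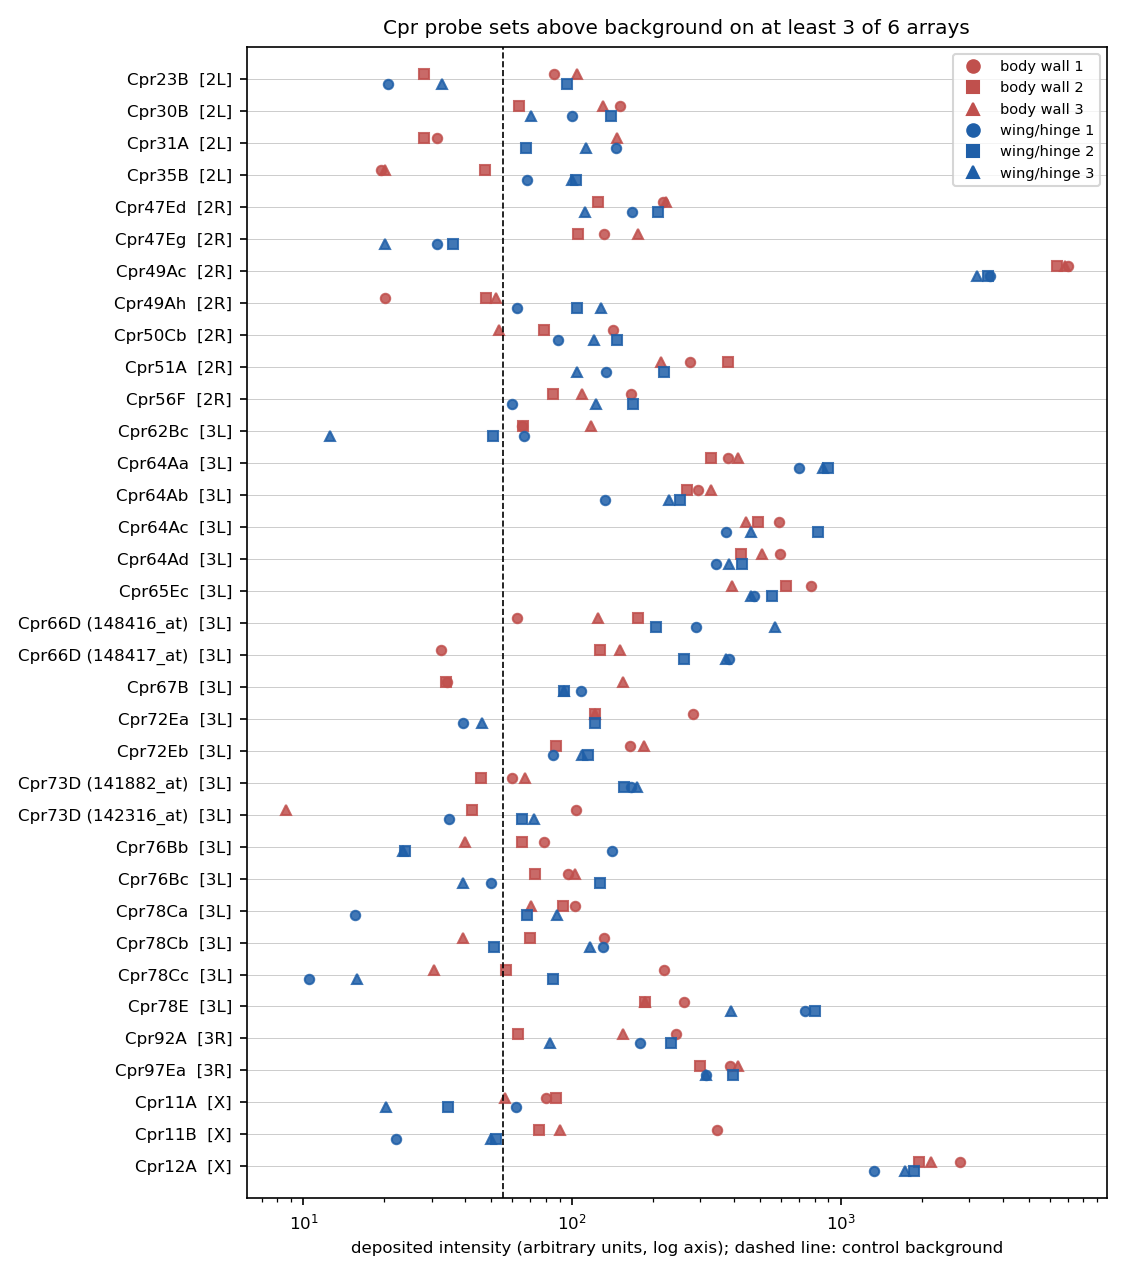
Deposited intensity (log axis, arbitrary units) on each of the 6 arrays for the 35 Cpr probe sets above background on at least 3 arrays, ordered by chromosome arm and name. Each point is 1 array, the dashed line is the background of 55.1, and rows are to be read singly. Cpr49Ac and Cpr12A lie far above the line on all arrays, and Cpr47Eg has its body wall arrays to the right of the line and its wing/hinge arrays to the left.

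Between the fragments, 53 members were tested and 2 passed. Cpr47Eg was higher in body wall and a probe set of Cpr73D was higher in wing/hinge (limma, Benjamini-Hochberg adjusted p under 0.05). Of all 11698 probe sets tested 0.915% were called, 0.590% toward body wall and 0.325% toward wing/hinge. Before adjustment 7 members in each direction had p under 0.05, where 8.97% of all probe sets did. In 13 of the 53 members the 3 values of a fragment lay above the 3 of the other, with body wall on top in 6 and wing/hinge in 7. Over all probe sets this held for 15.0%, made up of 8.48% toward body wall and 6.53% toward wing/hinge. The median log2 difference of the members was 0.10 (body wall minus wing/hinge), beside 0.03 over all probe sets tested, with 31 members above 0 and 22 below. Without wing/hinge 3 the members' median was -0.00, without body wall 2 it was 0.39, without wing/hinge 2 it was 0.28 and without body wall 1 it was 0.05. The 7 members not tested, Cpr47Ea, Cpr47Ee, Cpr49Ab, Cpr49Af, Cpr62Ba, Cpr65Az and Cpr65Eb, were above the intensity floor of 20.4 on fewer than 3 arrays. Cells of a fragment were measured together, so fewer cells with a transcript and less transcript per cell cannot be told apart.

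**Figure D3:**
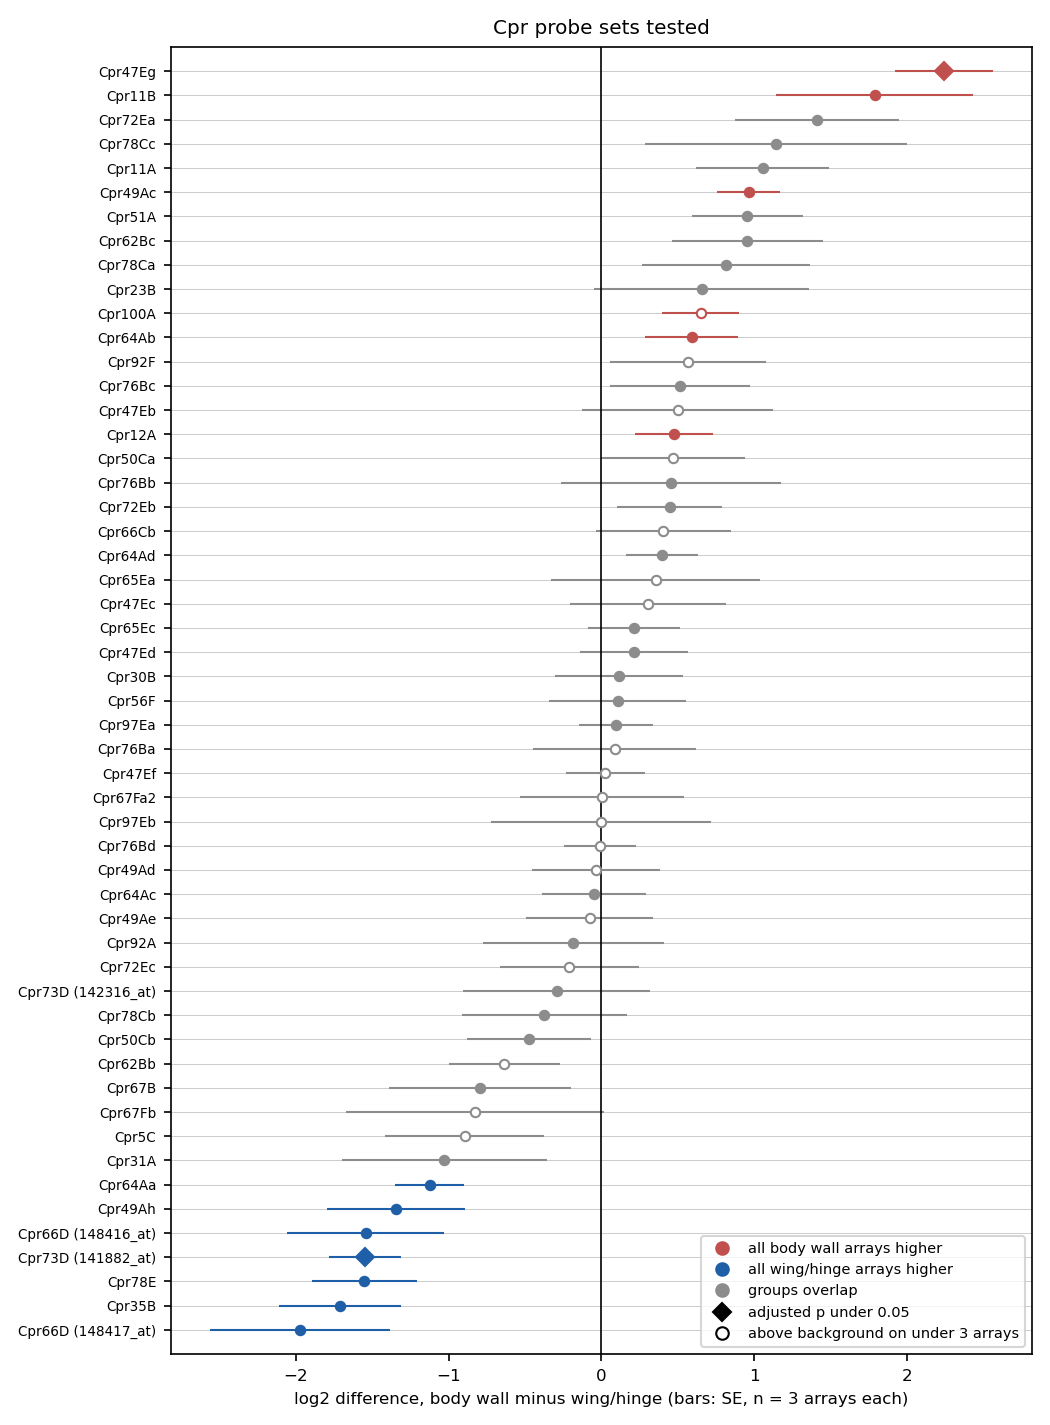
Log2 difference of intensity, body wall minus wing/hinge (horizontal axis), for the 53 Cpr probe sets tested, with bars for the SE (n = 3 arrays per fragment). Diamonds mark the 2 called probe sets, colours the 13 whose fragments do not overlap, and open symbols those above background on fewer than 3 arrays. The estimates run from -1.97 for a Cpr66D probe set to 2.24 for Cpr47Eg.

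Among the genes toward body wall, Cpr47Eg measured 131, 105 and 176 in body wall and 31.4, 35.9 and 20.1 in wing/hinge. All 3 wing/hinge values lay under the background, so the difference is a lower bound. Set against the background level, body wall was at least 2.44-fold higher for Cpr47Eg, with a fitted log2 difference of 2.24 (SE 0.32, 95% interval 1.48 to 3.00; limma adjusted p = 0.0327). The difference was 1.97 on the wide-range arrays and 2.74 on the narrow-range arrays. The call was lost whichever array was left out (lowest limma adjusted p = 0.0757), with the arrays blocked by range (limma adjusted p = 0.0703) and with body wall 1 and 2 averaged (limma adjusted p = 0.0967).

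Cpr49Ac had the smallest SE of the 53 members tested, with 7004, 6355 and 6827 in body wall and 3596, 3547 and 3221 in wing/hinge. Its fragments were far apart relative to their own spread (6729 ± 335 and 3454 ± 204, SD, n = 3 each), a 1.95-fold difference. The log2 difference was 0.96 (SE 0.20, 95% interval 0.48 to 1.45) and did not pass the test over all probe sets (limma adjusted p = 0.135). It was 0.97 on the wide-range and 1.03 on the narrow-range arrays. With the trended, robust variance model the same difference passed (limma adjusted p = 0.0146).

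Cpr12A, also well above background throughout, measured 2774, 1947 and 2162 in body wall against 1335, 1880 and 1735 in wing/hinge. The fragments did not overlap, though the gap between body wall 2 and wing/hinge 2 was small. Its log2 difference was 0.47 (SE 0.26; limma adjusted p = 0.687). Cpr11B measured 347, 75.6 and 90.2 in body wall and 22.2, 51.9 and 49.8 in wing/hinge, all of the latter under background. Body wall 1 stood well above the other body wall arrays and set much of the mean of 171 ± 152 (SD, n = 3). Against the background level the estimate was at least 2.42-fold. The fitted log2 difference of 1.79 (95% interval 0.25 to 3.32, limma adjusted p = 0.45) became 1.10 without body wall 1. Cpr100A also had its fragments apart, at 48.1, 37.7 and 42.7 against 26.1, 22.6 and 34.1, but every value was under the background.

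Toward wing/hinge, the called probe set of Cpr73D (141882_at) measured 59.7, 45.8 and 66.6 in body wall and 166, 156 and 174.5 in wing/hinge. The body wall values lay at about the background level, and the wing/hinge values were close to each other. The log2 difference was -1.55 (SE 0.24, 95% interval -2.11 to -0.99; limma adjusted p = 0.0429), -1.43 on the wide-range and -1.66 on the narrow-range arrays. This call too was lost whichever array was left out (lowest limma adjusted p = 0.108), with the block by range (limma adjusted p = 0.106) and with body wall 1 and 2 averaged (limma adjusted p = 0.121). A dimmer probe set of the same gene (142316_at) measured 104, 42.3 and 8.6 in body wall and 34.9, 65.1 and 72.3 in wing/hinge. Its fragments overlapped and its difference of -0.29 had an SE of 0.61 (95% interval -1.75 to 1.16). That span covers values in either direction, the value of the called one among them. The difference of this dimmer probe set was 1.12 on the wide-range and -1.30 on the narrow-range arrays.

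Cpr66D had its wing/hinge values above those of body wall at both of its probe sets, without passing the test. The first (148416_at) measured 62.5, 176 and 125 in body wall and 289, 205 and 571 in wing/hinge. The second (148417_at) gave 32.5, 127 and 151 against 385, 262 and 375. The lowest body wall value was that of array 1 at both. For the first, the log2 difference was -1.54 (SE 0.51; limma adjusted p = 0.403), or -1.95 with the block by range (limma adjusted p = 0.0703). The second gave -1.97 (SE 0.59; limma adjusted p = 0.337), or -2.36 with the block (limma adjusted p = 0.164). Without body wall 1 the differences shrank to -1.13 and -1.27. Both probe sets read the same gene and count as 1 observation of it.

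Cpr78E measured 260.3, 186 and 186 in body wall and 734, 798.5 and 389 in wing/hinge. Here the wide-range arrays wing/hinge 1 and 2 were higher than wing/hinge 3, and body wall 1 was higher than the other body wall arrays. The log2 difference was -1.55 (SE 0.34; limma adjusted p = 0.156), being -1.56 on the wide-range and -1.06 on the narrow-range arrays. It passed with the trended, robust variance model (limma adjusted p = 0.0131). Dimmer genes separated as well. Cpr35B measured 19.4, 47.6 and 20.1 in body wall and 67.7, 103 and 99.5 in wing/hinge, an estimate of at least 1.61-fold against the background level. Its fitted log2 difference was -1.71 (95% interval -2.66 to -0.76, limma adjusted p = 0.174). Cpr49Ah measured 20.2, 47.9 and 52.1 in body wall and 62.3, 104.5 and 128 in wing/hinge, an estimate of at least 1.71-fold. Its fitted log2 difference was -1.35 (95% interval -2.42 to -0.27, limma adjusted p = 0.407). Every body wall value of both genes was under the background.

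**Figure D4:**
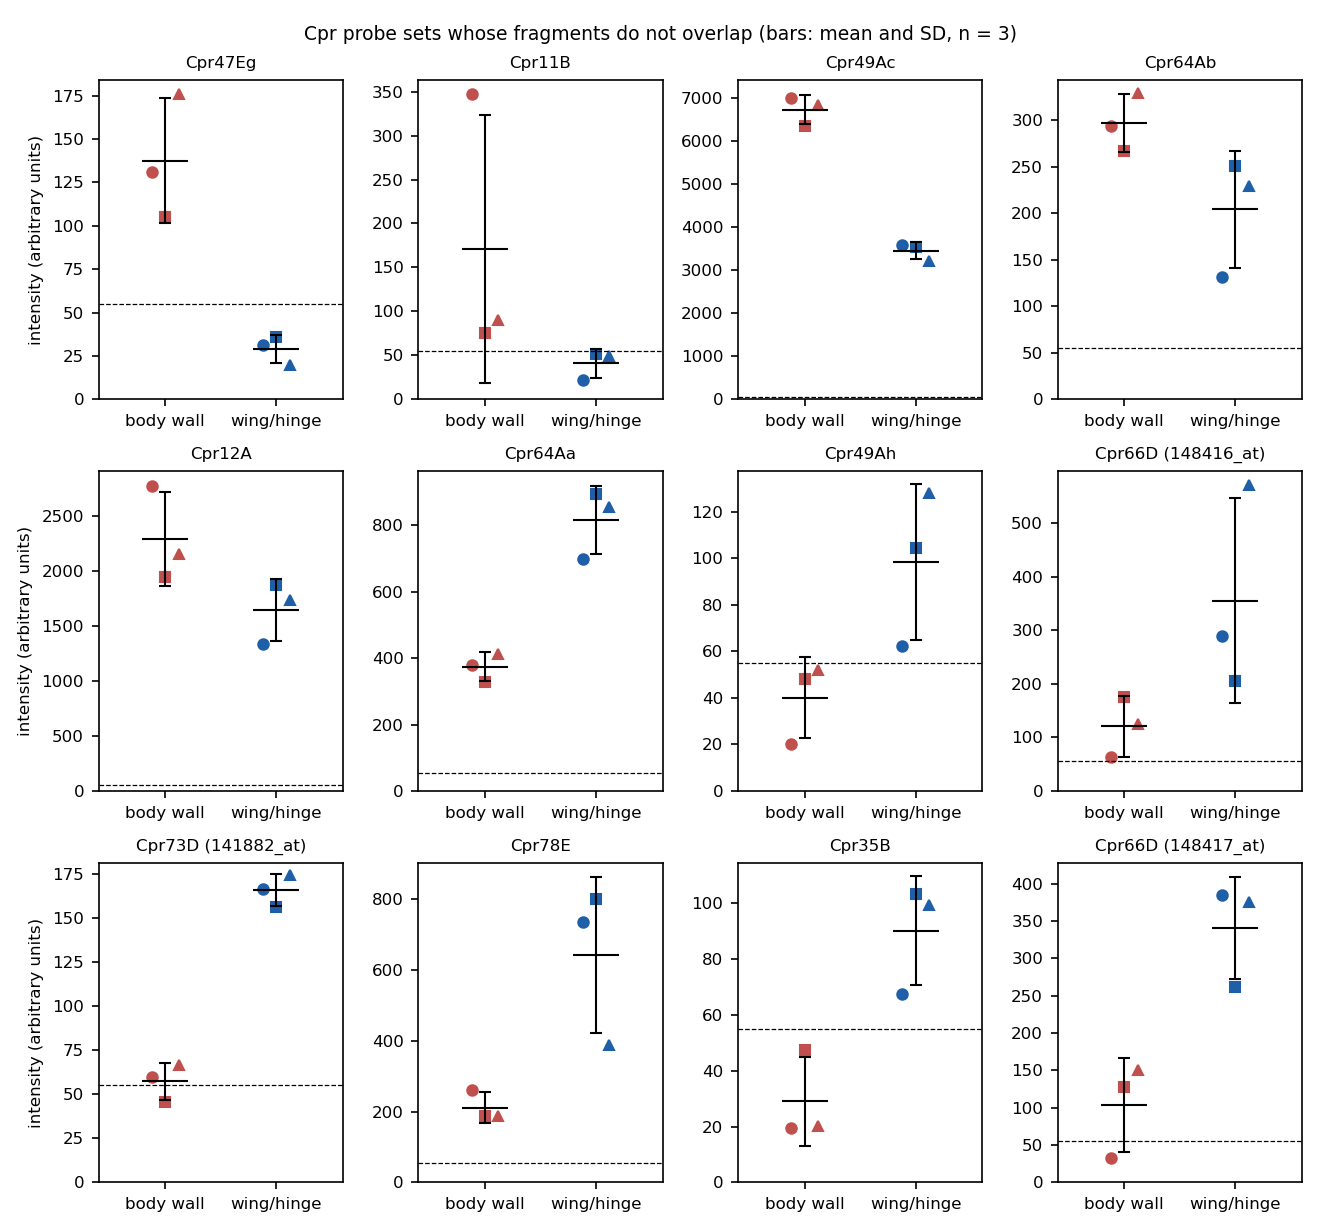
Intensity (vertical axes from 0, arbitrary units) on the 3 arrays of each fragment for the 12 Cpr probe sets that lay above background on at least 3 arrays and whose fragments did not overlap. Circles, squares and triangles are replicates 1, 2 and 3, black bars the mean and SD, and the dashed line the background of 55.1. Cpr49Ac sits between 6355 and 7004 in body wall and between 3221 and 3596 in wing/hinge, while Cpr11B has body wall 1 at 347 and its other body wall arrays at 75.6 and 90.2.

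The members were next compared by position. Of the 58 genes, 35 lie in 14 runs of directly neighbouring cuticle protein genes in the RefSeq annotation, with no other protein-coding gene between them. In these runs 15 of the 35 genes were above background on at least 3 arrays, and outside them 18 of 23. By chromosome arm the genes above background were 4 of 4 on 2L, 7 of 17 on 2R, 17 of 28 on 3L, 2 of 5 on 3R and 3 of 4 on X.

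The 4 neighbours Cpr64Aa, Cpr64Ab, Cpr64Ac and Cpr64Ad formed the only run in which every measured gene was above background on all arrays. Their estimates went in both directions, and none was called in the reported fit. Cpr64Aa lay toward wing/hinge, at 379.9, 328 and 414 in body wall and 699.9, 894 and 855 in wing/hinge. That is a 2.18-fold difference with no overlap (log2 difference -1.12, SE 0.23, 95% interval -1.67 to -0.58; limma adjusted p = 0.119). It was -1.06 on the wide-range and -1.21 on the narrow-range arrays, and passed with the trended, robust variance model (limma adjusted p = 0.0108). The next gene, Cpr64Ab, had its estimate on the opposite side, at 294, 267 and 329.6 in body wall and 132, 251 and 229 in wing/hinge (0.59, SE 0.31, 95% interval -0.14 to 1.32; limma adjusted p = 0.666). Wing/hinge 1 was the lowest array for it. Within each array the log2 ratio of Cpr64Aa to Cpr64Ab was 0.37, 0.30 and 0.33 in body wall and 2.41, 1.83 and 1.90 in wing/hinge. This pair was chosen after its values were seen, so the ratio is given with no test.

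The other genes of that run overlapped between fragments. Cpr64Ac measured 587, 491 and 442 in body wall and 373, 821 and 462 in wing/hinge, with wing/hinge 2 above the rest. Its log2 difference was -0.05, with a 95% interval of -0.86 to 0.76. Cpr64Ad measured 595, 425 and 510.3 against 345, 429 and 384, with all values but that of body wall 2 higher in body wall than any in wing/hinge (0.39, SE 0.24).

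**Figure D5:**
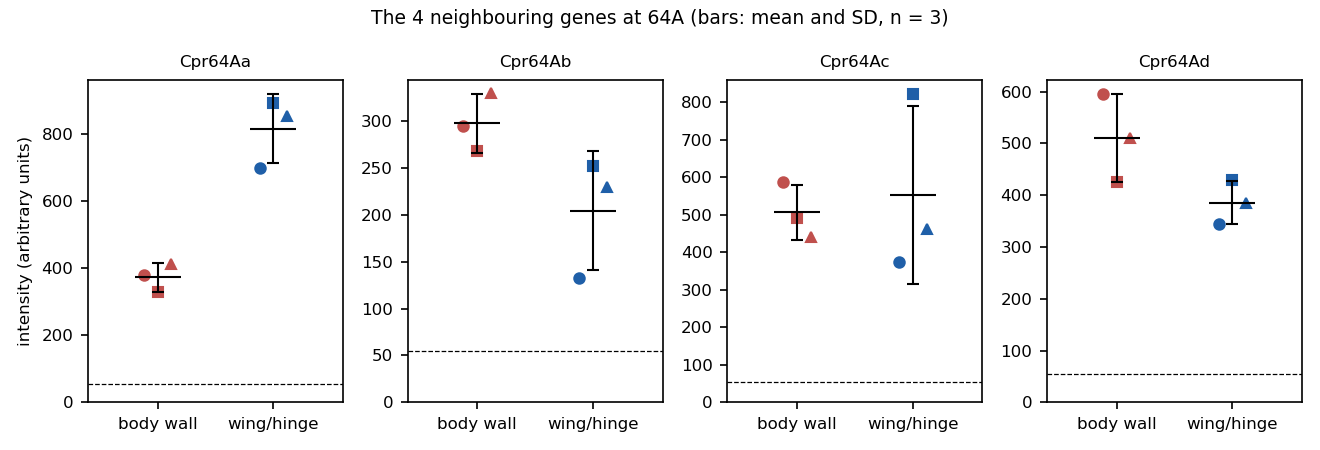
Intensity (vertical axes from 0, arbitrary units) of the 4 neighbouring Cpr64A genes on the 3 arrays of each fragment, with bars for the mean and SD (n = 3) and a dashed line at the background of 55.1. Cpr64Aa is higher on all wing/hinge arrays, Cpr64Ab on all body wall arrays, and the other 2 genes overlap.

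Of the 7 Cpr47E genes, Cpr47Eg and Cpr47Ed were above background on at least 3 arrays. Cpr47Ed measured 218, 125 and 223 in body wall and 167, 209 and 112 in wing/hinge (0.21, SE 0.35). Its lowest values came from the narrow-range arrays body wall 2 and wing/hinge 3. Cpr47Eb reached 123 on body wall 1 and stayed at 49.5 or less elsewhere, and Cpr47Ea, Cpr47Ec, Cpr47Ee and Cpr47Ef had no value above background. At 49A, beside Cpr49Ac and Cpr49Ah, the measured genes Cpr49Ab, Cpr49Ad, Cpr49Ae and Cpr49Af had no value above background.

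Elsewhere on arm 2R, Cpr51A measured 276, 382 and 214 in body wall and 134, 221 and 104 in wing/hinge. The fragments overlapped only through body wall 3 and wing/hinge 2 (0.96, SE 0.36; limma adjusted p = 0.486). Cpr56F measured 166, 85.1 and 109 against 59.5, 169 and 123, and its log2 difference of 0.11 had a 95% interval of -0.97 to 1.18. Cpr50Cb gave 142, 78.3 and 53.3 against 88.6, 147 and 121 (-0.47, SE 0.41). Its neighbour by name, Cpr50Ca, was above background on body wall 1 alone (120.4).

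Cpr65Ec, on arm 3L, measured 776, 623 and 395 in body wall and 476, 556 and 463 in wing/hinge (0.21, SE 0.30). Its neighbour Cpr65Ea was above background on 1 array (body wall 3, 118), and Cpr65Eb on none. At 72E, Cpr72Ea measured 281, 121 and 122 against 39.3, 122 and 46.3 (1.41, SE 0.54; limma adjusted p = 0.483), where wing/hinge 2 alone reached the level of body wall. Its neighbour Cpr72Eb measured 165, 87.3 and 186 against 84.8, 115 and 109 (0.45, SE 0.34), and Cpr72Ec passed the background on wing/hinge 3 alone (64).

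The genes at 76B and 78C varied within fragments, with values on both sides of the background. Cpr76Bb measured 78.6, 64.9 and 40 in body wall and 140.2, 23.9 and 23.5 in wing/hinge, so that wing/hinge 1 was its highest array and the other wing/hinge arrays its lowest. Cpr76Bc measured 96.4, 73.0 and 102 against 50, 127 and 39.1. Neither difference passed (0.46, SE 0.72, and 0.51, SE 0.46). Cpr78Ca measured 102, 92.6 and 70.2 against 15.5, 68.0 and 88.0. Of its arrays, wing/hinge 1 alone was under the background. Cpr78Cb measured 131, 69.9 and 39.1 against 130.5, 51.3 and 116. Cpr78Cc ranged from 219.8 on body wall 1 to 10.5 on wing/hinge 1, with 56.8 and 30.5 on the other body wall arrays and 84.9 and 15.8 on the other wing/hinge arrays. For these the fragments overlapped, with log2 differences of 0.82, -0.37 and 1.14 and SEs of 0.55, 0.54 and 0.86.

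Cpr97Ea was even, at 387.5, 300.3 and 413.5 in body wall and 316, 396 and 315 in wing/hinge. Its log2 difference was 0.10 with a 95% interval of -0.48 to 0.67, which leaves out changes of 2-fold in either direction. Cpr92A measured 243, 62.8 and 154.5 in body wall and 179.5, 234 and 82.4 in wing/hinge (-0.18, SE 0.59), and Cpr30B gave 151, 63.2 and 129.9 against 99.6, 139.7 and 70.3 (0.11, SE 0.42). Like Cpr47Ed, both genes had the lowest value of each fragment on body wall 2 and wing/hinge 3. Cpr23B measured 86.0, 28.2 and 104 in body wall and 20.6, 96.0 and 32.7 in wing/hinge (0.65, SE 0.70), with 1 or 2 arrays of each fragment above background.

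Some members were high on 1 array of a fragment. Cpr31A measured 31.5, 28.2 and 147 in body wall against 146, 67.3 and 113, and Cpr67B 34.2, 33.9 and 155 against 108, 93.2 and 93.1. In both, body wall 3 was the highest of all arrays and the other body wall arrays were under background (-1.03, SE 0.67, and -0.80, SE 0.60). Cpr62Bc, also highest on body wall 3, measured 65.0, 65.6 and 117 against 66.3, 50.8 and 12.6 (0.95, SE 0.49). No single array stood out for Cpr11A, at 80.2, 86.9 and 56.2 against 62.1, 34.5 and 20.3 (1.05, SE 0.43; limma adjusted p = 0.548). 

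The members above background on 1 or 2 arrays give no pattern by fragment. The single array was body wall 1 for 4 of them, at 123 for Cpr47Eb, 120.4 for Cpr50Ca, 59.2 for Cpr66Cb and 62.9 for Cpr92F. The last 2 values are under the control percentile of that array itself, as are the body wall 1 values of some members above background on more arrays. It was wing/hinge 2 for Cpr67Fb (225), Cpr5C (88.4) and Cpr65Az (77.0), body wall 3 for Cpr65Ea and Cpr76Ba (81.9), and wing/hinge 3 for Cpr72Ec. Cpr97Eb, the neighbour of Cpr97Ea, passed on body wall 3 (146) and wing/hinge 1 (60.5), and Cpr67Fa2 on body wall 2 (55.7) and wing/hinge 1 (67.2). Of the members with no value above background, Cpr62Bb reached 54.2, Cpr76Bd 30.5 and Cpr62Ba 43.2 at most.

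The spread between arrays was larger for the family than for the array as a whole. The median SE of the log2 difference was 0.45 for the 53 members tested and 0.32 over all probe sets tested. For those above background on all arrays it was 0.34 (16 members) and 0.27 (6818 probe sets). The highest value of a member was on a wide-range array in 37 of 60 (61.7%, against 51.4% of all fly probe sets). Body wall 1 alone held 18 of the highest values (30.0%, against 20.3% of all fly probe sets) and wing/hinge 2 held 15 (25.0%, against 16.8%). Body wall 3 held 14 (23.3%, near the 22.4% of all), while body wall 2 held 2 (3.3%, against 11.8%). Wing/hinge 1, also a wide-range array, held 4 (6.7%, against 14.4%), so the excess was not shared by all wide-range arrays. Wing/hinge 3 held 7 (11.7%, against 14.4%). 

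Cuticle protein genes without a Cpr symbol were also compared. They are set apart from the members by symbol only, and whether they encode the consensus was not checked. Their list held the Lcp, Ccp84A, Acp65A, Edg, Twdl and Vajk genes, Acp1, Pcp, resilin and Muc4B, with 41 genes that had a probe set of their own and 37 tested. It gave 1 call, toward wing/hinge, beside 0.915% called over all 11698 probe sets tested, and 36 genes did not pass. The median log2 difference was 0.32. Of the 41 genes, 22 (53.7%, against 65.1% of all fly probe sets) were above background on at least 3 arrays and 13 on none. The called gene, Vajk3, measured 7.7, 29.7 and 15.1 in body wall, all under background, and 126, 141.5 and 218 in wing/hinge (log2 difference -2.77, SE 0.30; limma adjusted p = 0.0141). With values under the background raised to it, the difference was -1.51 (limma adjusted p = 0.022). The call was lost without body wall 1, body wall 3 or wing/hinge 2 (limma adjusted p = 0.0668, adjusted p = 0.0761 and adjusted p = 0.0581). TwdlE, of the Tweedle family of cuticle proteins, gave 19.5, 16.1 and 39.3 in body wall, all under background, against 86.1, 292.5 and 238 in wing/hinge. The difference was at least 3.30-fold against the background level (fitted log2 difference -2.84, SE 0.52; limma adjusted p = 0.083). Edg91, an ecdysone-dependent gene for a cuticle protein, lay the other way at 134, 207 and 233.5 against 81.0, 75.3 and 53.2 (1.44, SE 0.31; limma adjusted p = 0.135). Edg84A and Edg78E, of the same group, gave 0.20 and -0.20, the latter under background on all arrays. The elastic cuticle protein gene resilin measured 124, 92.7 and 83.6 against 179.7, 179.9 and 110.4 (-0.63, SE 0.30).

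The list for chitin synthesis, modification and assembly gave no call among 31 tested of 33 with a probe set. At an unadjusted limma p under 0.05, 3 lay toward body wall and 1 toward wing/hinge, with a median log2 difference of -0.03. The list was drawn up by gene name and includes trn and f, and the role of each gene in chitin was not checked. Of the 33, 18 (54.5%, against 48.8% of all fly probe sets) were above background on all 6 arrays. The chitin synthase gene kkv measured 391, 411 and 483 in body wall and 412, 619 and 754 in wing/hinge (-0.44, SE 0.29). The chitin deacetylase genes serp and verm lay toward body wall without passing, serp at 1476, 1759.9 and 2089 against 644, 971 and 1149.7, and verm at 6178, 5202 and 5613 against 3768, 3192 and 3609. Their log2 differences were 0.97 (SE 0.30) and 0.69 (SE 0.21). Another deacetylase gene, Cda4, and Gasp, which encodes a chitin-binding protein, lay toward wing/hinge (-0.42, SE 0.21, and -0.91, SE 0.21). The groups of all 4 genes did not overlap. No gene of the ecdysone and prepupal stage list was called either (21 tested; limma, with 3 toward body wall at an unadjusted p under 0.05; median 0.20).

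Markers of other cell types and of the peripodial membrane were also compared. The sums of the adult muscle precursor and peripodial markers did not overlap between the fragments, and those of the other lists did. Of the adult muscle precursor markers, all 4 tested were called higher in body wall, and their sum ran from 1665 to 2004.5 in body wall and from 105 to 138 in wing/hinge. Of 6 fat body markers tested, 4 lay toward body wall and 2 toward wing/hinge, none called. Fbp1 (1.81) and Lsp2 (1.19) had their groups apart, while Yp2 gave -0.99 and Yp3 -0.10. The fat body markers summed to between 1083 and 1441.5 in body wall and to between 439 and 1108 in wing/hinge. The larval epidermis list had 4 of 11 genes with a probe set, Lcp65Ac alone above background on at least 3 arrays, and sums of 148 to 313 in body wall and 64 to 207 in wing/hinge. All 4 are also on the list of other cuticle protein genes. Tracheal cells also carry a cuticle. Their 9 measured markers summed to between 13784 and 15595 in body wall and to between 13644 and 15865 in wing/hinge, and 4 of them (verm, serp, Gasp and pio) are on the chitin list too. The bright probe sets of pio and verm made up most of this sum and lay in opposite directions (-0.44 and 0.69). Of the 9, 6 lay toward wing/hinge and 3 toward body wall, none called (median -0.44). The tracheal receptor gene btl measured 123.5, 80.0 and 37.9 in body wall and 11.6, 18.5 and 14.2, all under background, in wing/hinge (1.82, SE 0.43; limma adjusted p = 0.18). Of 8 haemocyte markers tested, 7 lay toward body wall (median 0.69). Of these, Hml, eater, Pxn and crq overlapped between the fragments (0.82, 0.66, 0.67 and 0.04), and srp (0.70) was under background on all arrays. NimC1, also under background throughout, was not tested. The collagen gene Col4a1 was called (2.31; limma adjusted p = 0.0149), and vkg, another collagen gene, gave 2.82 (limma adjusted p = 0.171). The haemocyte sum, 3195 to 3504 in body wall and 3235 to 3780.5 in wing/hinge, includes Ama, which went the other way (-0.77). Larval muscle markers summed to 439.8 to 764 and 338 to 704, and peripodial markers to 467 to 849 and 1259 to 1626, with no call among either. Among the peripodial markers, ana gave -1.67, upd1 -1.53 and lin 0.001. The part of any of these cell types in the Cpr differences was not tested.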

How the data were processed

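RNA of 6 wing disc fragments was measured on 1 array each. The intensities, 1 per probe set and array, are those deposited by the authors, on a linear scale as read from the values. Their 2% trimmed mean was close to 300 (300.04 to 300.05) on every array, so they were used without further scaling. Summary algorithm, scaling software and genome build: not given in the sources used here. Symbols came from the platform annotation, and the RefSeq Release 6 gene table gave chromosome arms and gene order only.

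Intensities under the floor, the 20th percentile of fly probe sets pooled over the arrays (20.4), were raised to it before taking log2. A probe set was tested if above the floor on at least 3 arrays, with the moderated linear model of limma (3.58.1, under R 4.3.3; two-sided, default eBayes, no block) and Benjamini-Hochberg adjustment over all 11698. Fold bounds raise the dimmer fragment to the control background of 55.1. They bound the estimate and not its uncertainty, and the p-values given with them belong to the fitted log2 differences. The fit was tested on simulated data. Exact permutation of 3 and 3 arrays cannot reach the threshold and was not used. The number of arrays limits the precision.

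Groups and numbers came from the sample titles. The members, lists and named genes (members above background on at least 3 arrays, members with groups apart, called list genes) were chosen with earlier results of these data known. Other list genes named, and members on 1 or 2 arrays, were chosen after their values were seen. No sequence was used.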

Additional observations from a re-analysis of the deposited data

How the results depend on the processing

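Counts of calls depended on the settings more than the differences did. The 2 Cpr calls became 0 with the floor halved, with the replicate block, with the block by brightest values, with body wall 1 and 2 averaged and in all 6 fits with 1 array left out (0 to 0). They became 1 when a probe set had to pass the floor on all 6 arrays. The trended, robust variance model called 3, which were Cpr49Ac, Cpr64Aa and Cpr78E and not the 2 of the reported fit. With no filter the count stayed at 2, but Cpr47Eg was lost (limma adjusted p = 0.0829) and Cpr49Ac called (limma adjusted p = 0.0242). The floor at the control percentile called 3, with Cpr64Aa added (limma adjusted p = 0.0429). Calls over all probe sets went from 107 to 161 with that model, 10 with the replicate block, 52 with the block by brightest values, 49 with body wall 1 and 2 averaged and 31 to 44 with 1 array left out. The other cuticle protein genes called numbered 2 with arrays scaled to a common median, quantile normalisation, the floor at the control percentile or the trended, robust model, 0 with the floor passed on all 6 arrays or the replicate block, and 0 to 2 with 1 array left out. Of the genes on the chitin list, 1 was called with no filter. The 35 Cpr probe sets above background on at least 3 arrays became 16 when all 6 were required. The median log2 difference of the members ran from -0.0042 to 0.385 with 1 array left out and was 0.0008 with arrays scaled to a common median. Of the 36 named Cpr probe sets, 10 changed sign under some setting, none of them called in any. With 1 array left out, log2 differences ran from -0.134 to 0.498 for Cpr30B, -0.0327 to 0.4847 for Cpr47Ed, -0.321 to 0.4329 for Cpr56F, -0.291 to 0.278 for Cpr64Ac, -0.0019 to 0.4857 for Cpr65Ec, -0.8987 to 0.2735 for the dimmer Cpr73D probe set, -0.8149 to 0.0578 for Cpr78Cb and -0.6223 to 0.3577 for Cpr92A. The block by brightest values gave 0.049 for Cpr64Ac and 0.2521 for Cpr92A, and the floor at the control percentile 0.0927 for the dimmer Cpr73D probe set and -0.1994 for Cpr76Bb. Cpr76Bb was at -0.0551 with the floor doubled, Cpr56F at -0.0008 with quantile normalisation and Cpr97Ea at -0.0087 with a common median. Scaling to a common median moved the median log2 difference of all probe sets by -0.10. The deviations of same-numbered arrays correlated at 0.06, -0.16 and 0.19, and those of differently numbered arrays at -0.24 to 0.18. With 3 arrays per fragment, these values cannot show whether the title numbers pair the arrays. Of the control values, 64.5% lay at or under the floor.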

Other observations

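Probe sets that name a Cpr gene together with another gene cannot be given to either. The one for Cpr65Av and Cpr65Aw measured 90.5, 100.9 and 175.8 in body wall and 66.4, 114.0 and 93.9 in wing/hinge, above the control background of 55.1 on every array. The one for Cpr67Fa1 and Cpr67Fa2 reached 149.6 on body wall 2 and no more than 21.6 on the other arrays. The one for Cpr57A and the odorant-binding protein gene Obp57d measured 43.5, 46.5 and 93.3 in body wall and 159.9, 129.0 and 206.0 in wing/hinge. Its fragments did not overlap, and its log2 difference of -1.50 did not pass (limma adjusted p = 0.199).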
